A study of Drosophila melanogaster with 3 samples.

Results

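Single promoter peaks with the summit downstream were peaks of the protein CG34224 whose summit was listed just inside a gene. A member was a peak of the conservative list whose nearest protein-coding start site lay 1 to 500 bp behind the summit in the direction of transcription, with no start site of another protein-coding gene on the opposite strand within 500 bp. The summit is the base that the deposited list gives as the point of highest enrichment in a peak. By this rule 824 of the 4393 conservative peaks on the main chromosome arms were members. Single promoter peaks with the summit before the start site, called upstream peaks here, numbered 1580, and 1212 promoter peaks had a start site on the other strand as well. A further 769 peaks lay farther than 500 bp from any start site, and 8 had the summit on the start site itself. The rule uses positions only, so no strength or sequence value chose the members.

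The data come from chromatin immunoprecipitation followed by sequencing (ChIP-seq), which locates a protein on the genome. Drosophila melanogaster embryos aged 0 to 24 hours, of the strain CG34224-GFP with an insertion that targets CG34224, expressed a fusion of CG34224 with the fluorescent protein eGFP, and chromatin was pulled down with an antibody against GFP. All 3 libraries were biological replicates of this single group and carried the tagged protein, so no comparison with untagged embryos was made, and the control experiment that the labels name was not analysed here. Whole embryos of mixed stage were used, so each peak pools all embryonic tissues.

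Transcription of a gene begins at its start site, and the first stretch of the transcript, up to the start codon, is the 5′ untranslated region (5′UTR). A ChIP-seq summit on the downstream side therefore falls in the 5′UTR, in early coding sequence or in the first intron. Many fly genes that are active in most cells carry the DNA replication-related element (DRE), the letters TATCGATA, close to the start site, where it is bound by the factor Dref. The insulator protein BEAF-32 binds the shorter letters CGATA, which are part of the DRE.

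A set of 10 strong members that hold a DRE within 50 bp of the summit is shown, since the share with a DRE differed between members and upstream peaks. Each line gives 30 bases of the dm6 genome along the direction of the gene, 5′ to 3′, with the DRE in capitals.
pug: aaattcaagctTATCGATAaataaaatatt
RNaseX25: ggaactcgataTATCGATAccatctacgga
Rab19: gtaaaatggaaTATCGATAtatgagcttcg
CG7650: gacaatcgaccTATCGATActaccattagt
Nipsnap: tcttaggtccaTATCGATAgccaagcgcat
GckIII: cgacaggagaaTATCGATAttcaatcggta
CG10809: acatatgtatgTATCGATAggccaaaacaa
CG7115: gcttcggccccTATCGATAtttcaaaagtt
fz3: ccatatattcaTATCGATAcctggctgctc
p24-1: aatgctggcgaTATCGATAgcatatcacaa

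The printed stretches lie at chr3R:10696491-10696520 for pug, chr3L:7970599-7970628 for RNaseX25, chr3L:8296987-8297016 for Rab19, chr3R:17085512-17085541 for GckIII, chr2L:7821508-7821537 for CG7115 and chrX:769930-769959 for fz3, all read from the plus strand. Those of CG7650 at chr3L:15610348-15610377, Nipsnap at chrX:16073534-16073563, CG10809 at chr3L:9859846-9859875 and p24-1 at chrX:11852458-11852487 were read from the minus strand. In 6 of the 10 the centre of the DRE lay after the start site, and in 4 before it. This split depends on the choice of a DRE within 50 bp of a downstream summit. Over all members the nearest DRE lay before the start site in 51.8% at that reach, against 72.1% within 250 bp. The DRE of fz3, which encodes a Frizzled receptor, was centred 0.5 bp before the start site. The DRE of pug lay farthest before its start site, with its centre at -28.5 bp, and that of p24-1 farthest after, at 57.5 bp. All 10 summits lay in the 5′UTR, 3 to 28 bp downstream of the start site.

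Members made up 34.2% of the 2412 single promoter peaks of the conservative list (95% Wilson interval 32.3 to 36.1%, counting error only), which is also the background share against which gene groups are read. In the lists of the single replicates, with 2667, 2844 and 4146 peaks, downstream peaks were 29.8% of 1508, 26.9% of 1572 and 35.2% of 2294 single promoter peaks. Over the 3 replicates the share averaged 30.7% ± 4.22 (SD, n = 3), so summits on the upstream side were the larger class in every list. Among the upper 50% of peaks by signal the share was 19.7%, with a replicate mean of 19%. Summits at least 51 bp downstream were 21.5% of all single promoter peaks, with a replicate mean of 16.5%. That total still counts the peaks nearer to the start site. The files list peaks without counts of reads, which leaves the sequencing depth unknown, and replicate 3 had both the longest list and the highest share. The share was 36.6% on 3L, 35.9% on 2L, 35.1% on 2R, 35.0% on 3R, 28% on X (120 of 428) and 14.3% on chromosome 4 (2 of 14).

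The 824 peaks belonged to 783 start sites of 775 genes, and 48 genes had more than 1 member peak. SNF4Agamma, a regulatory subunit of the energy sensor AMPK, was among them. The start site of 15 members was shared with a further gene, and 5 members had a start site of another protein-coding gene on the same strand within 500 bp. In 122 members the same start site also had an upstream peak of its own, so that 2 summits flank it. A further start site of the same gene lay ahead of the summit within 500 bp in 105 members (12.7%), and for these the side depends on which start site is used. The start site lay inside the peak interval in 752 members (91.3%), against 88.6% of upstream peaks. Most member intervals had the same width of 536 bp, so a summit near the start site brings the start site inside. This share therefore follows largely from distance and width.

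Summits of members lay a median of 87.0 bp into the gene, with an interquartile range of 29.8 to 163 bp. The first 50 bp held 306 members (37.1%), over 50 to 150 bp held 279 (33.9%) and over 150 to 500 bp held 239 (29.0%). Upstream peaks had their median at -66.0 bp, with 623 in the nearest 50 bp, 639 at over 50 to 150 bp and 318 farther out. In the replicate lists the downstream peaks sat closer to the start site than in the conservative list, at medians of 48.0, 55 and 69.5 bp. The median absolute distance averaged 57.5 ± 11.0 bp for downstream peaks and 60.7 ± 3.79 bp for upstream peaks (SD, n = 3), a difference of -3.17 ± 7.75 bp that is within the spread between replicates.

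**Figure D1:**
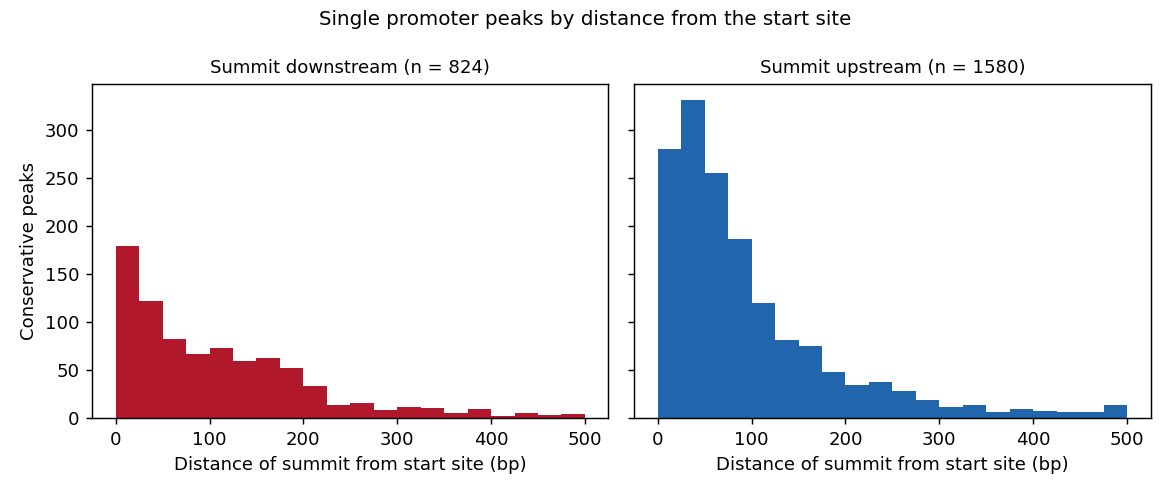
Distribution of summit distances to the nearest start site in the conservative list, with distance in bp along the direction of transcription on the x axis and the number of peaks on the y axis, for members (downstream) and upstream peaks. Members are most frequent next to the start site, with 306 of 824 in the first 50 bp.

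At the lower limit, CG14818, wkd and CycA were members with the summit 1 bp downstream and signals of 565, 471 and 405. The signal is the value of the authors' peak caller, on a scale that the deposited descriptions do not state, and is used only within a list. Phb1, CG3402 and RhoGAP1A had the summit on the start site and stayed outside, with signals of 687, 417 and 309. CycA encodes cyclin A and Phb1 a prohibitin of the mitochondrial inner membrane. At the upper limit, Cka and Ypel at 499 bp and BtbVII at 492 bp were inside with signals of 46.7, 37.6 and 69.9, while CG31523 at 505 bp, vari at 509 bp and Tdg at 511 bp were outside with 121, 29.8 and 204.

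The strongest members mostly lay close to the start site. The 20 members of highest signal among those found in all 3 replicates had signals from 632 to 1006, and 14 of them had the summit in the first 50 bp. The strongest was CG3732 (chr2R:22640019-22640354, minus strand), with a signal of 1006 and the summit 7 bp downstream. Its signal was 339, 287 and 435 in replicates 1, 2 and 3, where its summit lay at 18, 17 and 7 bp. CG3732 thus kept its summit in the first 18 bp of the gene in every library.

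Next to it stood pug, OstDelta and CG3760. The peak of pug, which encodes an enzyme of folate metabolism (chr3R:10696338-10696747), had a signal of 944 at 10 bp, and summits at 15, 39 and 17 bp in replicates 1, 2 and 3. OstDelta encodes a subunit of oligosaccharyltransferase, the complex that adds sugar chains to proteins in the endoplasmic reticulum (chr2R:17766788-17767178). Its signal was 872 with the summit at 63 bp, and its replicate summits lay at 86, 97 and 63 bp. CG3760 (chr2R:24938094-24938406) had a signal of 811 at 65 bp, with replicate summits at 62, 77 and 66 bp. These peaks stayed downstream in each library and differed in how far.

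The genes mre11, Rad51D, Smg5 and RNaseX25 were also among the 20. The double-strand break nuclease gene mre11 (chr2L:11281922-11282226) had a signal of 799 at 13 bp, with replicate summits at 12, 20 and -21 bp, so replicate 3 placed it before the start site. Rad51D, of homologous recombination (chr2R:9165522-9165822), had a signal of 740 at 28 bp and replicate summits at 50, 45 and 60 bp. Smg5, of nonsense-mediated mRNA decay (chr2L:13904420-13904766), had a signal of 792 at 87 bp and replicate summits at 76, 71 and 68 bp. The ribonuclease gene RNaseX25 (chr3L:7970430-7970759) had 790 at 21 bp and replicate summits at 22, 30 and 2 bp. Among these, mre11 was the member whose side differed between libraries.

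The other strong members had signals of 632 to 874. The phosphatase gene PRL-1 had a signal of 771 at 71 bp and shares its start site with CG46309. ReepB, which shapes the endoplasmic reticulum, had 732 at 8 bp, the GTPase gene Rab19 had 727 at 28 bp, and Vps35, of the retromer that sorts endosomal cargo, had 632 at 4 bp. The exchange factor gene cyst had 712 at 10 bp, the kinase gene GckIII had 641 at 20 bp and RpS30, a small-subunit ribosomal protein gene, had 691 at 3 bp. CG8617 had 874 at 10 bp, CG7650 had 673 at 5 bp and Nipsnap had 643 at 24 bp. The remaining strong members, Sik3 and Ptpmeg2, lay deeper and are described with the far summits.

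Of these 20 strong members, 14 had the summit downstream of the start site in every replicate. In the other 6, namely CG8617, mre11, ReepB, RpS30, CG7650 and Vps35, at least 1 replicate had the summit at or before the start site. Those 6 had conservative summits at 13 bp or less. RpS30, for example, had replicate summits at -3, 17 and -22 bp around a conservative summit at 3 bp. A DRE lay within 50 bp of the summit in 9 of the 20, and 19 had the summit in the 5′UTR.

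**Figure D2:**
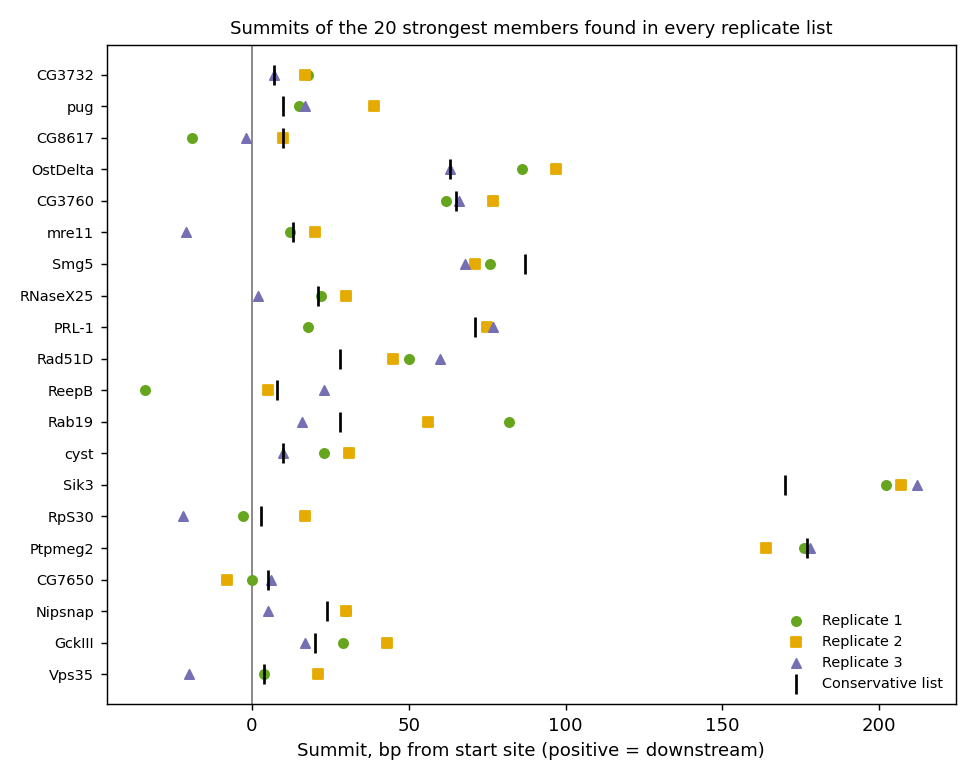
Summit positions of the 20 strongest members found in all 3 replicates, in bp from the nearest start site along the gene on the x axis and 1 gene per row, with a point for the conservative list and for each replicate. In 14 of the 20 every replicate point lies downstream of 0, and the points of Sik3 and Ptpmeg2 stand apart at 164 to 212 bp.

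Members had the weaker signals among promoter peaks. Their median signal was 172 (interquartile range 131 to 244, range 29.1 to 1006), against 274 for upstream peaks, 291 for promoter peaks with a start site on the other strand and 174 for peaks far from any start site. Among the 100 strongest peaks, which are 2.28% of the list, were 2 members and 58 upstream peaks. In whole embryos, binding in fewer cells and less binding per cell cannot be told apart.

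Downstream peaks were also weaker than upstream peaks in each library. Downstream peaks had a median signal percentile within their own list of 31.6, 30.6 and 33.5 in replicates 1, 2 and 3, against 59.0, 57.3 and 60.1 for upstream peaks. The averages were 31.9 ± 1.43 and 58.8 ± 1.43, and the difference was -26.9 ± 0.448 percentile points (SD, n = 3; exact sign-flip permutation test over replicates, two-sided p = 0.25). This p is the smallest that the sign-flip test can give with 3 replicates, so no class difference can reach 0.05 by that test. The statements on differences therefore rest on their size against the spread between replicates, which may be partly technical. Against promoter peaks with a start site on the other strand, at 59.4 ± 3.19, the difference was -27.5 ± 1.78 (SD, n = 3; exact sign-flip permutation p = 0.25).

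Members were also found less often in the single replicates. A peak counted as found where it overlapped a thresholded replicate peak by at least 50% of the shorter one. Members were found in 49.2%, 49.9% and 75.6% of cases in replicates 1, 2 and 3, against 64.3%, 69.2% and 85.0% for upstream peaks, where the shares over all conservative peaks were 57.1%, 61.9% and 80.0%. The mean difference was -14.6 ± 5.0 percentage points, lower for members in 3 of 3 replicates (SD, n = 3; exact sign-flip permutation test, two-sided p = 0.25). With the ranked replicate lists, which carry no threshold, it was -1.77 points, and with summits within 100 bp as the match it was -24.6 points.

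All 3 replicates held 302 members (36.7%, Wilson 33.4 to 40.0%), against 56.1% of upstream peaks (53.6 to 58.5%), with 47.3% over all conservative peaks. No replicate list held 142 members (17.2%), against 9.62% of upstream peaks and 13.8% of all. The members in between were 227 in 1 list and 153 in 2 lists. The median signal of members in 0, 1, 2 and 3 lists was 137, 157, 190 and 274. In the ranked lists 775 members were found in all 3 replicates, as were 115 of the 142 absent from the thresholded lists.

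**Figure D3:**
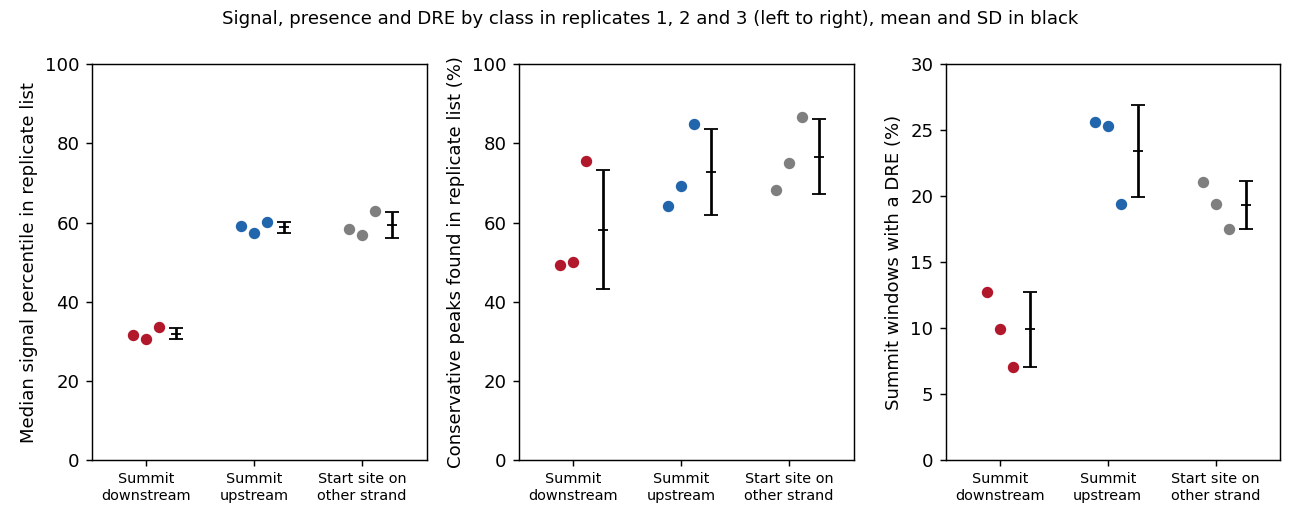
Comparison of members with upstream peaks and with promoter peaks that have a start site on the other strand, showing replicate values as points with mean and SD, in percentile points for signal (left) and in percent for presence in the replicate lists (middle) and for a DRE near the summit (right). Members lie lowest in each replicate for signal, at 30.6 to 33.5, and for presence in the replicate lists, at 49.2, 49.9 and 75.6%.

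In each library most of the members found there kept the downstream position, but many did not keep it in all 3. Where a member was found in a replicate, the strongest overlapping replicate peak also had its summit downstream in 64.9% of 405, 61.1% of 411 and 75.9% of 623 cases, a mean of 67.3% ± 7.71 (SD, n = 3). Summits moved by a median of 41.0, 40.0 and 28 bp between the conservative list and replicates 1, 2 and 3. The median signed shift was -20.0, -25.0 and -7.00 bp, so replicate summits lay closer to, or before, the start site. Members were chosen for a downstream summit in the conservative list, so a shift in this direction is partly built in. The shift of upstream peaks is not given here for comparison. The conservative list was made from the same libraries, so these shares are not independent of it.

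Of the 302 members found in all 3 replicates, 129 (42.7%) were downstream in each, 69 (22.8%) in 2, 49 (16.2%) in 1 and 55 (18.2%) in none. Among the 129, 61 had the conservative summit at 1 to 50 bp, 43 at over 50 to 150 bp and 25 at over 150 to 500 bp. Without the 122 members whose start site also has an upstream peak, which could be matched to that neighbour, the replicate shares were 74.2%, 70.1% and 84.7%, a mean of 76.4% ± 7.53. That subset was chosen after the values were seen. It left 702 members, of which 238 (33.9%) were in all 3 replicates.

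Peak intervals of 536 bp, the most common width of the conservative list, held 686 members (83.3%). These had a median signal of 159, a median distance of 105 bp and a DRE in 2.33%, and 24.6% were in all 3 replicates. The 137 narrower members (16.6%) had a median signal of 397, a median distance of 22.0 bp and a DRE in 27.0%, and 132 of them (96.4%) were in all 3 replicates. BEAF-32 was the 1 member with a wider interval. In the replicate lists the share of peaks at the list's most common width was 85.3% ± 4.98 for downstream peaks and 63.5% ± 5.41 for upstream peaks (SD, n = 3). How far a member's distance depends on this width was not tested.

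By the annotation, 5′UTRs, coding exons and first introns held nearly all summits of members. The 5′UTR held 620 (75.2%, Wilson 72.2 to 78.1%), coding exons 106 (12.9%), the first intron 96 (11.7%) and a later intron 2. In the replicate lists the shares were 79.5% ± 1.00, 10.7% ± 0.710 and 9.56% ± 0.299 (SD, n = 3). The location followed distance, with the 5′UTR holding 98.4% of summits at 1 to 50 bp, 77.4% at over 50 to 150 bp and 43.1% at over 150 to 500 bp. In that last range 64 summits lay in coding exons (26.8%) and 70 in the first intron (29.3%).

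Members in the 5′UTR had a median signal of 187, against 136 in coding exons and 152 in the first intron. A DRE was in the window of 52 members in the 5′UTR (8.39%), of 1 in a coding exon and of 0 of 96 in the first intron, which allows up to 3.12%. Members in coding exons were in all 3 replicates in 22.6% of cases, those in the 5′UTR in 38.5% and those in the first intron in 40.6%. Coding summits were therefore both the weakest and the least often found of these 3 locations. The median distance was 52.5 bp in the 5′UTR, 163 bp in coding exons and 183 bp in the first intron. Location and distance were not separated.

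Genes with a downstream peak had a shorter stretch before the first coding base than genes with an upstream peak. The median distance from the start site to the first coding base was 285 ± 38.9 bp at downstream peaks and 332 ± 21.0 bp at upstream peaks, a difference of -47.7 ± 18.2 bp (SD, n = 3; exact sign-flip permutation p = 0.25). Where a start site lies on the other strand this distance was 167 ± 8.96 bp, shorter than at downstream peaks in 3 of 3 replicates. Genes with more than 1 start site held 46.7% ± 2.35 of downstream peaks and 45.0% ± 2.96 of upstream peaks. The median GC content of the window of 50 bp to either side of the summit was 44.9% ± 0.572 at downstream peaks, 42.9% ± 0.572 at upstream peaks and 38.6% ± 0.990 where a start site lies on the other strand. Non-coding genes were near few members, with a tRNA gene within 500 bp of 3 members (0.364%) and of 0.949% of upstream peaks, and a snoRNA gene within 500 bp of 4 (0.485%) and of 0.443%. Genes of the class ncRNA were near 20 members (2.43%) and 5.32% of upstream peaks.

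The DRE was less frequent in members than in upstream peaks. It was searched on both strands in the window of 50 bp to either side and found in 53 members (6.43%, Wilson 4.95 to 8.32%), against 19.9% of upstream peaks and 18.3% of promoter peaks with a start site on the other strand. Over all conservative peaks the share was 14.2%. In windows 500 bp to either side of the members' summits it was 0.728%, and in windows centred 87 bp downstream of all 19630 protein-coding start sites it was 0.331%. The windows of all start sites have a single fixed position, whereas the summits of members do not, so that share is a level for orientation and not a matched comparison.

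In replicates 1, 2 and 3 the share was 12.7%, 9.93% and 7.05% of downstream peaks, against 25.6%, 25.3% and 19.4% of upstream peaks. The difference was -13.6 ± 1.59 percentage points, lower in 3 of 3 replicates (SD, n = 3; exact sign-flip permutation p = 0.25, Benjamini-Hochberg adjusted p = 0.295 over the 13 sequences searched). Among the upper 50% of peaks by signal the difference was -7.15 points. The shorter letters CGATA, which every DRE contains, were in 255 members (30.9%) and 54.2% of upstream peaks, with 43.7% over all conservative peaks and 13.4% at all start sites. In the replicates CGATA averaged 38.7% ± 6.53 and 62.6% ± 6.79, a difference of -23.9 ± 0.669.

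Distance from the start site went with these shares. Within the first 50 bp a DRE was in 49 members (16%) and in 30% of upstream peaks, and at over 50 to 150 bp in 4 members (1.43%) and in 17.4%. At over 150 to 500 bp it was in 0 of 239 members, which allows a share of up to 1.26%, and in 5.35% of upstream peaks. Over the replicates the differences in the first and second ranges were -14.2 ± 1.45 and -16.5 ± 2.18 percentage points (SD, n = 3; exact sign-flip permutation p = 0.25 each). Members thus had the lower share at equal distance on opposite sides of the start site. The windows were not matched for the position of the DRE. The nearest DRE lay before the start site in 83.6% of promoter peaks with a DRE within 250 bp.

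Signal declined with distance on the downstream side. The median percentile in the replicate lists was 49.3 ± 2.20, 27.0 ± 1.81 and 10.5 ± 7.48 for downstream peaks at 1 to 50, over 50 to 150 and over 150 to 500 bp, against 66.8 ± 1.46, 58.3 ± 1.58 and 41.3 ± 3.81 for upstream peaks at the same distances. The differences were -17.5 ± 1.55, -31.3 ± 1.63 and -30.8 ± 3.84 percentile points (SD, n = 3; exact sign-flip permutation p = 0.25 each). In all 3 replicates were 51%, 28% and 28.5% of members in these ranges, against 66.6%, 55.4% and 36.8% of upstream peaks.

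**Figure D4:**
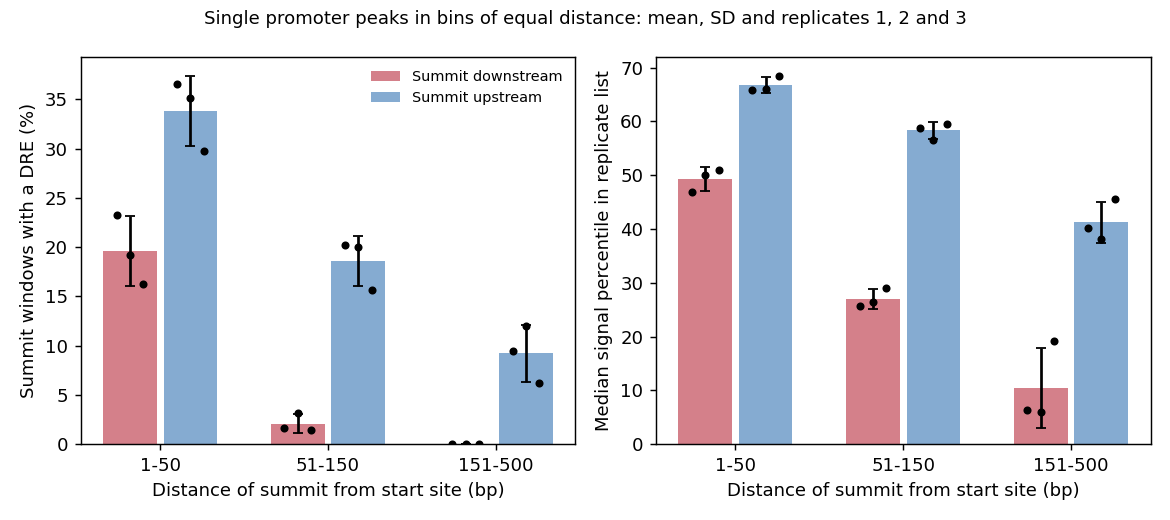
Members and upstream peaks at matched distances from the start site (1 to 50, over 50 to 150 and over 150 to 500 bp), showing replicate points with mean and SD for the signal percentile and for the percent of peaks with a DRE in the window of 50 bp to either side. Members lie below upstream peaks in each range, with DRE means of 19.6, 2.08 and 0% against 33.8, 18.6 and 9.26%.

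Members with a DRE in the window were the stronger ones. The 53 had a median signal of 365, a median distance of 14.0 bp and presence in all 3 replicates in 42 cases (79.2%), while the other 771 had 167, 95 bp and 260 cases (33.7%). In replicates 1, 2 and 3 the median percentile of downstream peaks with a DRE was 58.5, 62.6 and 73.7, against 27.4, 26.8 and 30.7 without. The difference was 36.7 ± 6.03 percentile points (SD, n = 3; exact sign-flip permutation p = 0.25). Members with a DRE also lay nearer to the start site, and the 2 properties were not separated.

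Where a DRE stood near a member, it mostly lay before the start site. A DRE within 250 bp of the summit was present in 154 members (18.7%), and the nearest one lay before the start site in 111 of them (72.1%, Wilson 64.5 to 78.6%) and after it in 43. Of upstream peaks 431 had one (27.3%), before the start site in 90.3%, and over all promoter peaks with a DRE the share was 83.6%. In the replicate lists 66.4%, 69.0% and 75.5% of downstream peaks with a DRE had it before the start site, a mean of 70.3% ± 4.69 (SD, n = 3).

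The DRE of these members was centred a median of 20.5 bp before the start site, written as -20.5 bp, with an interquartile range of -42.8 to 1.5 bp, against -47.5 bp at upstream peaks. In the replicates the median position was -15 ± 2.50 bp at downstream peaks and -46.2 ± 1.15 bp at upstream peaks, a difference of 31.2 ± 1.61 bp (SD, n = 3; exact sign-flip permutation p = 0.25). The search reaches 250 bp from the summit, so the positions open to it differ between both classes. The summits themselves differed by 86.8 ± 6.05 bp. In the conservative list the median offset of the summit from the DRE was 79.5 bp downstream in members, of which 137 of 154 had the summit past the DRE, and -3.50 bp in upstream peaks. The absolute distance was 83.0 bp in members and 26.5 bp in upstream peaks. The rule puts the summits of both classes on opposite sides of the start site. The summit difference, the offsets and the distances to the DRE therefore follow in large part from the rule.

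**Figure D5:**
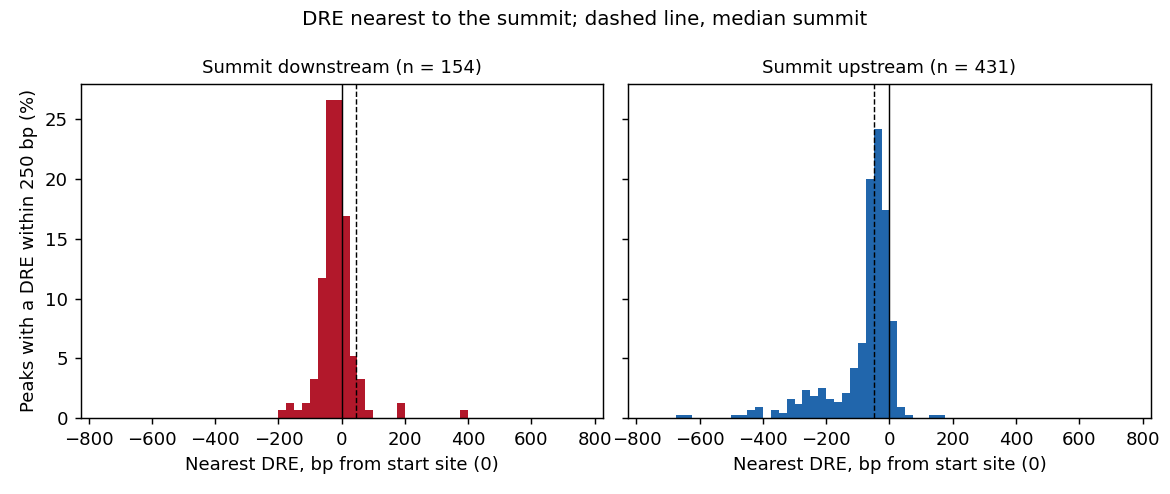
Position of the nearest DRE within 250 bp of the summit, in bp from the start site along the gene, as the share of peaks with such a DRE, for members and upstream peaks, with dashed lines at the median summit of each class. The DREs of both classes gather just before the start site, at medians of -20.5 and -47.5 bp. The median summits lie at 45.5 and -50 bp, on the sides that the rule sets.

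By distance of the summit, 80 of 306 members at 1 to 50 bp had a DRE within 250 bp, 40 of 279 at over 50 to 150 bp and 34 of 239 at over 150 to 500 bp. It lay before the start site in 68.8%, 85.0% and 64.7% of these. The median DRE position was -16, -28 and -19 bp, so it lay before the start site in each range. Counted from the start site, 15% of members and 20.3% of upstream peaks had a DRE in the 150 bp before it. In the replicates these shares were 18.4% ± 2.62 and 23.8% ± 3.33, a difference of -5.41 ± 1.52 points (SD, n = 3; exact sign-flip permutation p = 0.25), smaller in size than the difference in the summit windows.

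In the 150 bp after the start site the order was the opposite, with a DRE in 4.37% of members and 2.78% of upstream peaks. The replicate means were 5.77% ± 1.78 and 3.16% ± 0.479, higher at downstream peaks in 3 of 3 replicates by 2.62 ± 1.45 points (exact sign-flip permutation p = 0.25). Promoter peaks with a start site on the other strand had a DRE there in 5.86%. Their replicate mean was 5.98% ± 0.304, and downstream peaks were lower in 2 of 3 replicates. Of the printed members, chosen for a DRE within 50 bp of the summit, RNaseX25, CG7650, Nipsnap, GckIII, CG10809 and p24-1 have it after the start site.

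Of the other 12 sequences searched in the window, 10 differed in the same direction in all 3 replicates, including CGATA. Lower in members were GAGAGAG, the repeat bound by GAGA factor, in 27 members (3.28%) against 7.28% of upstream peaks, with 5.78% over all conservative peaks and 1.19% at all start sites. Its replicate means were 2.43% ± 0.298 and 6.71% ± 1.07. The TATA box letters TATAAA were in 6.92% of members and 10.1% of upstream peaks (10.8% over all peaks and 10.8% at all start sites), with replicate means of 7.74% ± 0.730 and 11.0% ± 0.578. Motif 7 (4.49% and 7.78%, with 6.37% over all peaks and 0.897% at all start sites), the Motif 1 core GGTCACAC (3.03% and 3.86%, with 3.30% and 0.341%) and Motif 6 (0.364% and 0.759%, with 0.637% and 0.143%) were lower as well. For the Motif 1 core and Motif 6 the members' Wilson intervals, 2.06 to 4.44% and 0.124 to 1.06%, include the upstream share. Counting error alone therefore covers these 2 differences in the conservative list.

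Higher in members were the pause button, the TCT and the initiator, which are known promoter elements, and a CA repeat. The pause button letters CGGACG, found downstream of start sites with paused polymerase, were in 30 members (3.64%) and 1.90% of upstream peaks, with 1.91% over all peaks and 2.54% at all start sites. The replicate means were 3.68% ± 0.524 and 1.94% ± 0.326, a difference of 1.74 ± 0.828 points. CTTTTC, a form of the TCT initiator of translation genes, was in 10.9% and 7.41% (8.13% over all peaks, 11.2% at all start sites), and the initiator letters TCAGT in 18.4% and 17.0% (16.4% and 17.4%). The members' Wilson interval for TCAGT, 15.9 to 21.2%, includes the upstream share. CACACACA was in 3.52% and 2.22%, with 2.53% over all peaks and 2.22% at all start sites.

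The E-box letters CAGCTG, in 10.7% of members and 13.0% of upstream peaks (10.9% over all peaks, 4.25% at all start sites), and the DPE letters AGACGTG, in 0.607% and 0.190% (0.364% and 0.443%), did not keep 1 direction in the replicates. Every sign-flip p was 0.25 or more. A match of letters is a description of the window and not a binding site.

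The far members, over 150 to 500 bp into the gene, held the weakest signals but also a few strong and stable peaks. Sik3, a kinase of the AMPK family (chr2R:18688595-18689060), had a signal of 694 with the summit 170 bp downstream in the first intron, and replicate summits at 202, 207 and 212 bp. The tyrosine phosphatase gene Ptpmeg2 (chrX:9658832-9659112) had 674 at 177 bp in the 5′UTR, with replicate summits at 176, 164 and 178 bp. BEAF-32, the insulator gene named above (chr2R:14771280-14771870), had 478 at 387 bp in the first intron, with replicate summits at 305, 385 and 361 bp. In these peaks all libraries placed the summit deep in the gene.

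Pfrx, an enzyme gene of fructose bisphosphate metabolism (chrX:19497005-19497243), had 367 at 458 bp in the first intron, with replicate summits at 459, 413 and 459 bp. The peak of stwl, a chromatin gene of the female germline (chr3L:14409418-14409667), had 338 at 359 bp, with replicate summits at 382, 385 and 359 bp. CCT3, a subunit gene of the chaperonin that folds actin and tubulin (chr3R:16647648-16647822), had 373 at 155 bp and replicate summits at 197, 60 and 148 bp. Unlike Pfrx and stwl, CCT3 did not keep the far range in all libraries.

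Stretches of 30 bases around 4 of these summits are shown to set them beside the DRE stretches, along the gene and 5′ to 3′, with the summit base in capitals.
Ptpmeg2: atgcatcgcttagcAtcgataacgaccgag
CCT3: actaacaagccggtcCgctcaatatcctat
Pfrx: ttttgccattcccttAtcaccttacgcttt
stwl: ggatagcaatcgacGttgcgtagttttctg

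They lie at chrX:9658953-9658982 (minus strand) for Ptpmeg2, chr3R:16647745-16647774 (plus) for CCT3, chrX:19497118-19497147 (plus) for Pfrx and chr3L:14409565-14409594 (minus) for stwl, on dm6. None of the 10 strongest far members held a DRE in the window. The windows of Ptpmeg2, CCT3 and Pfrx held the shorter letters CGATA, and that of stwl held Motif 7 and no CGATA. In the stretch of Ptpmeg2 the letters cgata stand just after the summit base.

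Other far members were matched to replicate peaks with the summit elsewhere, or varied in distance. Atx2, the ataxin-2 gene that acts in translation, had 405 at 199 bp, while its replicate summits lay at -7, 32 and 8 bp. TTLL4B, a tubulin ligase-like gene, had 336 at 160 bp in the first intron, and replicate summits at -42, -25 and -34 bp. For bsd, with 439 at 170 bp, they were 140, 170 and 226 bp, and for Ppcs, a coenzyme A synthesis gene with 280 at 225 bp, they were 253 and 224 bp in replicates 1 and 3. Of the 10 strongest far members, 5 kept the summit over 150 bp downstream in every replicate, and Atx2 and TTLL4B had no matched summit there. The strongest overlapping replicate peak was taken, so a neighbouring peak could stand in for the member. Atx2 ranked 1025 in the conservative list and its matches 534, 254 and 371. TTLL4B ranked 1319 and its matches 704, 372 and 523. Whether these are the same peaks was not tested.

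In the whole list 9 members had the summit over 150 bp downstream in the conservative list and in each replicate, a set chosen after its values were seen. Beside Sik3, Ptpmeg2, BEAF-32, Pfrx and stwl they were CG5577, the zinc transporter gene ZnT41F, the RNA-binding protein gene larp, and Ypel. Their signals reached from 37.6 at Ypel to 694 at Sik3, with a median of 338. The summit lay in the first intron in 7 and in the 5′UTR in 2, 0 had a DRE and 5 had CGATA.

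The share of members among single promoter peaks varied between gene groups around the background of 34.2%. Groups were defined by gene symbol and are described by counts of members among the single promoter peaks at their genes. Cytoplasmic ribosomal protein genes had 9 members of 29 peaks (31.0%), among them RpS30 (signal 691) and RpS28b (233). Genes known only by a CG number had 196 of 599 (32.7%). Aminoacyl-tRNA synthetases, which load tRNAs, had 3 of 7, with beta-PheRS at 599, GluRS-m at 146 and CysRS at 130.

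Mitochondrial ribosomal protein genes stood higher, with 11 of 16 (68.8%, Wilson 44.4 to 85.8%), led by mRpL3 (signal 511 at 17 bp), mRpS29 (309 at 28 bp) and mRpL40 (305 at 10 bp). In the replicate lists their counts were 2 of 7, 5 of 12 and 7 of 10, so the share varied widely. The replicate summits of mRpL3 lay at 23, 20 and 24 bp, and those of mRpS29 at -10, -5 and 28 bp. Translation factors had 9 of 16 (56.2%), with eIF2alpha (312 at 1 bp), eIF3j (280 at 73 bp) and eIF4E1 (241 at 15 bp), and replicate counts of 4 of 12, 4 of 10 and 6 of 14. In eIF2alpha every replicate summit lay before the start site, at -40, -14 and -1 bp.

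Patterning and cell fate genes stood lower, with 6 of 33 (18.2%, Wilson 8.61 to 34.4%) and replicate counts of 3 of 23, 1 of 19 and 4 of 27. Their strongest members were tkv, a receptor for the signal protein Dpp (372 at 60 bp), dpp itself (222 at 26 bp) and the homeobox gene en (189 at 48 bp). The dpp summit lay at 64 and -50 bp in replicates 1 and 2 and was not found in replicate 3, and en was found in replicates 1 and 3 at 205 and 54 bp. Of these genes, tkv was found in all 3 libraries, at 1, 4 and 54 bp.

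Insulator and architectural protein genes had 5 of 11 (45.5%), with 4 of 10, 5 of 10 and 6 of 11 in the replicates. BEAF-32 led them at 478, followed by dwg at 439 (summit at 9 bp, and at 9, 19 and 17 bp in the replicates) and pita at 425 (summit at 113 bp, and at 124, 73 and 130 bp). All of these named summits were downstream in every replicate. Proteasome genes had 1 of 9, Rpt6 at 249, but 2 of 7, 3 of 7 and 4 of 7 in the replicates. Complex I genes had 1 of 5, ND-B14.5B at 322, with 2 of 5, 0 of 4 and 2 of 5 in the replicates.

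The proton pump V-ATPase had 3 of 5 (VhaSFD at 326, VhaAC45 at 204 and Vha13 at 172) and Rab GTPases 2 of 5 (Rab19 at 727 and Rab23 at 165). Among groups of the transcription machinery, Mediator stood at 3 of 3 (MED14 at 293, MED19 at 155 and MED25 at 95.8), general transcription factors at 2 of 5 (Taf1 at 165 and Taf8 at 162) and RNA polymerase subunits at 3 of 8 (Polr3A at 122, Polr2L at 55.2 and Polr2F at 29.4). Of the 13 groups with 5 or more single promoter peaks, 5 lay below the background share. Groups this small give wide intervals, and no test was made.

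The gene of the tagged protein, CG34224, had no peak of this kind. No conservative peak lay within 500 bp of its start site on 2R, and the nearest conservative summit was 14886 bp away.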

How the data were processed

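Peaks and not reads were the starting point. The authors deposited ranked and thresholded peak lists (irreproducible discovery rate, IDR) for each replicate and for the whole series, on assembly dm6 per the labels. The deposited score of a peak is scaled to at most 1000, and the lowest score in the thresholded replicate lists was 830. The deposited signal is the value of the authors' peak caller on an unstated scale. Not given in the sources used here were the aligner, the peak caller and the IDR version. Chromatin was sonicated to 200 to 800 bp, per the labels.

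Start sites (19630 of 13968 protein-coding genes) came from Ensembl release 115 (BDGP6.54), and bases from the RefSeq dm6 genome. Of 4395 conservative peaks, 2 lay off the main arms. Classes were assigned within each list. Letters were searched on both strands in windows of 50 bp to either side of the summit base. Class differences were taken within each of 3 replicates and tested by an exact two-sided sign-flip permutation test. Wilson intervals cover counting error only. All counts were made with Python 3.11.15, pandas 2.3.3, numpy 2.4.6, scipy 1.17.1 and matplotlib 3.10.9, after checks on simulated data. Alternatives changed the distance limit, start sites, peak selection, window, overlap and series list.

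Named genes were the 20 strongest members in all 3 replicates, the 10 strongest beyond 150 bp, the 10 strongest with a DRE outside 2R, up to 3 per gene group, those at the limits, and CG34224. Members, gene groups and sequences were chosen with earlier results of these data known. A gene that the rule for named genes selects is not reported here.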

Additional observations from a re-analysis of the deposited data

How the results depend on the processing

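Of 130 alternative values, 96 stayed within the spread or the test's direction, 34 moved beyond it and 0 reversed; the causes were not tested. The tested differences between members and upstream peaks stayed negative, at -13.9 to -33.4 percentile points of signal, -1.77 (ranked lists) to -24.6 (summits within 100 bp) points of presence and -7.15 to -14.7 points of DRE share (-23.9 with CGATA). With only the most upstream start of each gene, the downstream share was 38.7% (replicate mean 34.9%), presence in all replicates 42.2%, the DRE before the start site in 61.2% (60.0%) and the 5′UTR share 71.6% (76.9%). With the upper 50% of peaks by signal these were 19.7% (19%) for the downstream share, 65.4% (62.6%) for the DRE side and 91.6% (92.5%) for the 5′UTR, replicate summits were downstream in 78.8% and 3 gene groups lay below background. With only summits at least 51 bp downstream counted as members, presence was 28.2% and the 5′UTR share 61.6% (62.8%). These members were 21.5% (16.5%) of all single promoter peaks, a total that still counts nearer peaks. On that total 8 groups lay below background. Limits of 250 and 1000 bp gave 5′UTR shares of 79.2% (82.2%) and 68.1% (73.1%), and the other series lists 77.5% and 76.5%. With summits within 100 bp as the match, presence was 24.3% and replicate summits were downstream in 80.8%. Ranked lists gave a presence of 94.1%. Leaving out each replicate gave 38.2 to 45.4%, but there only the remaining lists had to hold the peak, so this share cannot fall below the main one. A DRE within 50 bp of the summit lay before the start site in 51.8%. Without members whose start site also has an upstream peak, chosen after seeing the data, replicate summits were downstream in 76.4%. Depth is unknown, no control library was analysed here, and the sign-flip test with 3 replicates cannot give a p under 0.25.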
